A study of Homo sapiens with 12 samples.

Results

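SFPQ, NONO, PSPC1, EWSR1, TAF15, TARDBP and MATR3 encode abundant RNA-binding proteins of the nucleus, and their own mRNAs are described here in the nuclear and cytoplasmic RNA of HEK293T cells given mutant or wild-type SF3B1. The 7 symbols were matched to 8 of the 67049 gene IDs in the count files by name and by no measured value, MATR3 having a pair of IDs. Of those, 7 IDs were among the 20394 genes that passed the filter on low counts. The 7 genes themselves were chosen with earlier results of these data known.

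The study introduced a pIRES2 plasmid carrying SF3B1 into HEK293T, a human embryonic kidney cell line, by lipid transfection, and RNA was taken at 48 h. SF3B1 is a core subunit of the U2 snRNP, the splicing particle that recognises branch points. In one arm the plasmid encoded SF3B1 with the K700E substitution, which recurs in blood cancers, and in the other arm the wild-type protein (WT). The groups were cytoplasm with K700E, cytoplasm with WT, nucleus with K700E and nucleus with WT, each with 3 libraries, 12 in all. Cells of both arms kept their own SF3B1 genes, so K700E was added to the endogenous protein and did not replace it. Counts per gene do not separate plasmid from endogenous SF3B1 transcripts. The series title gives the question as whether such mutations hinder export of mRNA out of the nucleus.

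SFPQ, NONO and PSPC1 form the DBHS family, proteins with paired RNA recognition motifs that dimerise with one another. SFPQ and NONO are needed to build paraspeckles, nuclear bodies assembled on the long non-coding RNA NEAT1, and PSPC1 is enriched in them. EWSR1 and TAF15 are FET proteins, which bind RNA and RNA polymerase II and shuttle between nucleus and cytoplasm. TARDBP represses cryptic exons and regulates the amount of its own mRNA through its 3′ untranslated region, and MATR3 is a nuclear matrix protein that binds pyrimidine-rich introns. Mutations in TARDBP and MATR3 occur in amyotrophic lateral sclerosis, and EWSR1 is the fusion partner of ETS factors in Ewing sarcoma.

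Total counts ran from 9086743 to 11200562 in nuclear libraries and from 13422598 to 18116929 in cytoplasmic libraries. Levels are CPM, counts relative to the library total, scaled with edgeR's TMM factors, so a level is a gene's share of its own fraction's RNA and not a number of molecules per cell. In bulk RNA, fewer cells with a transcript and fewer transcripts per cell cannot be told apart. All 8 HEK293-type markers had a mean of at least 1 CPM, with summed levels of 293 to 1252 CPM per library, against 2 of 7 blood markers at a sum of 2.31 to 13.0 CPM and 3 of 7 fibroblast markers at 17.4 to 117 CPM. NEAT1 was at 48.2 ± 2.58 CPM in K700E cytoplasm and 853 ± 237 CPM in K700E nuclei, and at 45.8 ± 3.97 CPM in WT cytoplasm and 966 ± 325 CPM in WT nuclei (SD, n = 3 each). SF3B1 was at 7924 ± 882 CPM in K700E cytoplasm and 9430 ± 1061 CPM in WT cytoplasm, and at 1600 ± 500 CPM in K700E nuclei and 1577 ± 784 CPM in WT nuclei (SD, n = 3 each). Whether replicates were separate cultures is not stated in the labels, so p-values cover only the variation among the libraries sequenced, part or all of which may be technical.

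The genes lie on different chromosomes, apart from a pair on chromosome 1, and positions are those of GENCODE release 29 on GRCh38. SFPQ (ENSG00000116560.11) is at chr1:35176378-35193148 on the minus strand, and TARDBP (ENSG00000120948.19) at chr1:11012344-11026420 on the plus strand. NONO (ENSG00000147140.17) is at chrX:71283192-71301168 on the plus strand, PSPC1 (ENSG00000121390.19) at chr13:19674752-19783019 on the minus strand, and EWSR1 (ENSG00000182944.18) at chr22:29268009-29300525 on the plus strand. TAF15 (ENSG00000270647.6) is at chr17:35713791-35864615 on the plus strand. The MATR3 IDs are ENSG00000015479.20 at chr5:139293648-139331677 and ENSG00000280987.4 at chr5:139273752-139331671, both on the plus strand. Every count is given for a whole gene ID, so transcripts of a gene are not told apart. Whether untranslated regions and retained introns were counted with the other exons is not given in the sources used here.

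Promoters are shown for the genes whose K700E and WT libraries separated in the cytoplasm, as far as RefSeq's promoter table holds them (build GRCh38.p14; 5 of the 7 symbols matched, without SFPQ and TAF15). Each stretch runs 5′ to 3′ from 80 bases before to 20 bases after the start of transcription, and capitals mark the 8-letter motif GCCATTTT, which was picked after these sequences had been read.
NONO, chrX:71283555-71283654, plus strand: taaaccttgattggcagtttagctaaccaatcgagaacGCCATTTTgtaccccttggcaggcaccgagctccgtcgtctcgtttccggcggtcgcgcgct
PSPC1, chr13:19782926-19783025, minus strand: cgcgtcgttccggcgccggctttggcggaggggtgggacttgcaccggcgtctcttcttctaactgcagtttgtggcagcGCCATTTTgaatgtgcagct
TARDBP, chr1:11012574-11012673, plus strand: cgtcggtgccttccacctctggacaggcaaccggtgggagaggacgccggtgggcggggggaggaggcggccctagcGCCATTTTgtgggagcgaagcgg
EWSR1, chr22:29268188-29268287, plus strand: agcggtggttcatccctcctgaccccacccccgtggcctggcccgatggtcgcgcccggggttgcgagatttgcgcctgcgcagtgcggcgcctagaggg
The motif stood once in the 300-base promoters of NONO, PSPC1 and TARDBP, each time on the strand of the gene. It was not in those of EWSR1 or of the MATR3 starts on either strand. Over the whole table, 638 of 35116 promoters (1.82%) held it on either strand. Because the motif was picked from the printed sequences, that share only describes the motif and is no evidence of enrichment in these genes. A match describes the letters only and is no evidence of a bound factor.

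Levels between genes were compared per kilobase of annotated exon (CPM per kb), for which retained-intron and non-coding transcripts in the annotation lengthen some genes more than others. In K700E cytoplasm NONO was highest at 217 ± 6.80 CPM per kb, followed by SFPQ at 84.4 ± 6.36, TARDBP at 74.9 ± 11.5, EWSR1 at 48.2 ± 7.36 and PSPC1 at 21.4 ± 1.4 CPM per kb (SD, n = 3 each). SFPQ and TARDBP, neighbours in that order, differed by less than the SD of TARDBP. In WT cytoplasm the order was the same, with NONO at 238 ± 5.27, SFPQ at 136 ± 21.6, TARDBP at 96.4 ± 5.31, EWSR1 at 60.6 ± 4.32 and PSPC1 at 27.8 ± 3.22 CPM per kb. In the nuclei SFPQ led, at 180 ± 11.3 CPM per kb with K700E and 165 ± 40.3 with WT. NONO came to 131 ± 9.94 CPM per kb in K700E nuclei and 109 ± 4.28 in WT nuclei, and EWSR1 to 88.5 ± 7.20 in K700E nuclei and 109 ± 16.5 in WT nuclei, so that NONO and EWSR1 did not differ beyond their spread in WT nuclei. TARDBP followed at 44.4 ± 10.7 and 40.8 ± 20.9 CPM per kb in K700E and WT nuclei, PSPC1 at 22.9 ± 5.87 and 21.0 ± 2.82, and MATR3 (ENSG00000015479.20) at 4.30 ± 0.75 and 2.78 ± 2.53.

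**Figure D1:**
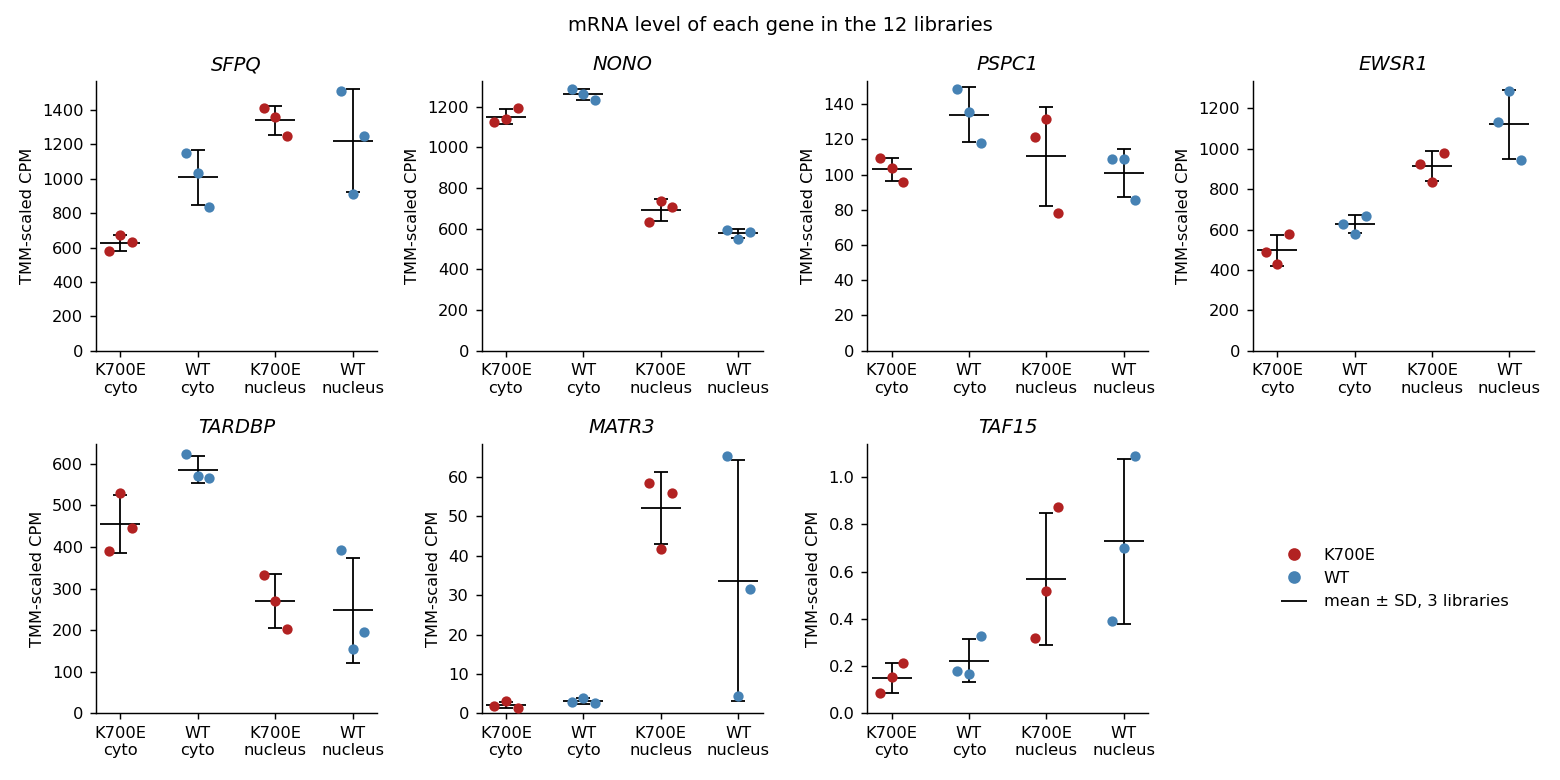
TMM-scaled CPM of each gene in the 12 libraries, with points for libraries, K700E in red and WT in blue, and horizontal bars for the mean ± SD of 3 libraries. SFPQ, NONO, PSPC1, EWSR1 and TARDBP have all 3 K700E cytoplasm libraries below all 3 WT cytoplasm libraries, and MATR3 and TAF15 are near 0 in the cytoplasm.

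The first comparison asked how these mRNAs were divided between cytoplasm and nucleus in K700E cells. NONO and TARDBP were higher in the cytoplasm, and SFPQ, EWSR1 and MATR3 were lower there, while PSPC1 and TAF15 did not pass the test. That made 2 of 7 genes higher, against 28.1% of all genes tested, and 3 of 7 lower, against 37.9%. The ratio is relative to the other RNAs of each fraction, since both fractions were scaled to their own totals. The median over all genes tested was a log2 fold change of -0.29, and over protein-coding genes 0.19.

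NONO, the DBHS protein that pairs most often with SFPQ, had 1122, 1139 and 1191 CPM in K700E cytoplasm, against 634, 736 and 708 CPM in K700E nuclei. The groups did not overlap, and the cytoplasmic level of NONO was 1.66-fold the nuclear one (log2 0.73 ± 0.18 SE, edgeR adjusted p = 0.0018). SFPQ had 578, 672 and 630 CPM in K700E cytoplasm, against 1413, 1357 and 1248 CPM in K700E nuclei. All cytoplasmic libraries lay below all nuclear ones, and the cytoplasmic level of SFPQ was 2.14-fold lower (-1.10 ± 0.22, edgeR adjusted p = 0.00037). The counts under these partner genes were thus weighted to opposite fractions. Of the exonic bases not shared with other genes, the share outside coding transcripts was 49.5% for SFPQ, 34.2% for NONO and 47.5% for PSPC1. It was 71.1% for EWSR1 and 8.65% for TARDBP, and the part of such transcripts in the counts was not tested. PSPC1, the least abundant of the DBHS family here, had 109, 104 and 95.9 CPM in K700E cytoplasm and 121, 132 and 78.2 CPM in K700E nuclei. Its libraries overlapped, and the log2 fold change was -0.10 ± 0.22 with a 95% interval of -0.56 to 0.36 (edgeR adjusted p = 0.70).

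EWSR1, the FET protein with enough counts to follow, had 487, 428 and 579 CPM in K700E cytoplasm, against 925, 834 and 981 CPM in K700E nuclei. Its cytoplasmic level was 1.83-fold lower, without overlap (-0.88 ± 0.20, edgeR adjusted p = 0.0011). After a correction for each library's trend with GC content the value was -0.40 and not called (adjusted p = 0.11). That correction also removes any difference between the fractions that follows GC content. TARDBP had 390, 529 and 445 CPM in K700E cytoplasm, against 333, 271 and 204 CPM in K700E nuclei. Its cytoplasmic level was 1.69-fold higher (0.75 ± 0.29, edgeR adjusted p = 0.030). The TARDBP call was lost with DESeq2 (0.65, adjusted p = 0.051), with RLE size factors (adjusted p = 0.057), with library size alone (0.34, adjusted p = 0.26), with at least 1 CPM demanded of every library (0.44, adjusted p = 0.18), and without K700E cytoplasm replicate 2 (adjusted p = 0.10) or K700E nucleus replicate 2 (0.058) or 3 (0.10). With library size alone NONO was not called either (0.32, adjusted p = 0.090), a scaling that moved the median of all genes by -0.41.

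In WT cells the same question gave NONO and TARDBP higher in the cytoplasm and EWSR1 and MATR3 lower. These were 2 of 7 genes higher, against 27.1% of all genes tested, and 2 of 7 lower, against 40.0%. The median log2 fold change in WT was -0.40 over all genes tested and 0.13 over protein-coding genes. NONO had 1287, 1263 and 1231 CPM in WT cytoplasm, against 594, 551 and 585 CPM in WT nuclei, a 2.19-fold difference (1.13 ± 0.18, edgeR adjusted p = 4.5e-05). TARDBP had 623, 569 and 565 CPM in WT cytoplasm, against 392, 155 and 196 CPM in WT nuclei, 2.36-fold more in the cytoplasm (1.24 ± 0.29, edgeR adjusted p = 0.0014). WT nucleus replicate 1 stood well above the other two nuclear libraries for TARDBP, and without it the log2 fold change was 1.79. EWSR1 had 627, 580 and 670 CPM in WT cytoplasm, against 1133, 1287 and 946 CPM in WT nuclei, 1.79-fold less in the cytoplasm (-0.84 ± 0.20, edgeR adjusted p = 0.0015).

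SFPQ was the gene whose call differed between the constructs. It had 1152, 1035 and 835 CPM in WT cytoplasm, against 1508, 911 and 1247 CPM in WT nuclei. The groups overlapped, since the lowest WT nucleus library lay below 2 of the cytoplasmic ones. The log2 fold change in WT was -0.28 ± 0.22, with a 95% interval of -0.73 to 0.18 (edgeR adjusted p = 0.26), and it was called with library size alone (-0.79, adjusted p = 0.0020) and with at least 1 CPM demanded of every library (-0.59, adjusted p = 0.019). PSPC1 had 149, 135 and 118 CPM in WT cytoplasm and 109, 109 and 85.3 CPM in WT nuclei. Its WT groups did not overlap, yet the log2 fold change of 0.41 ± 0.22 did not pass (edgeR adjusted p = 0.11). In WT, PSPC1 passed after the GC correction (0.69, adjusted p = 0.0061) and was at -0.11 with library size alone. In K700E it was at 0.25 after the GC correction, and passed as a lower level with library size alone (-0.50, adjusted p = 0.035). The GC correction moved the median of all genes by 0.25 with K700E and 0.32 with WT, and library size alone by -0.41 and -0.52.

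**Figure D2:**
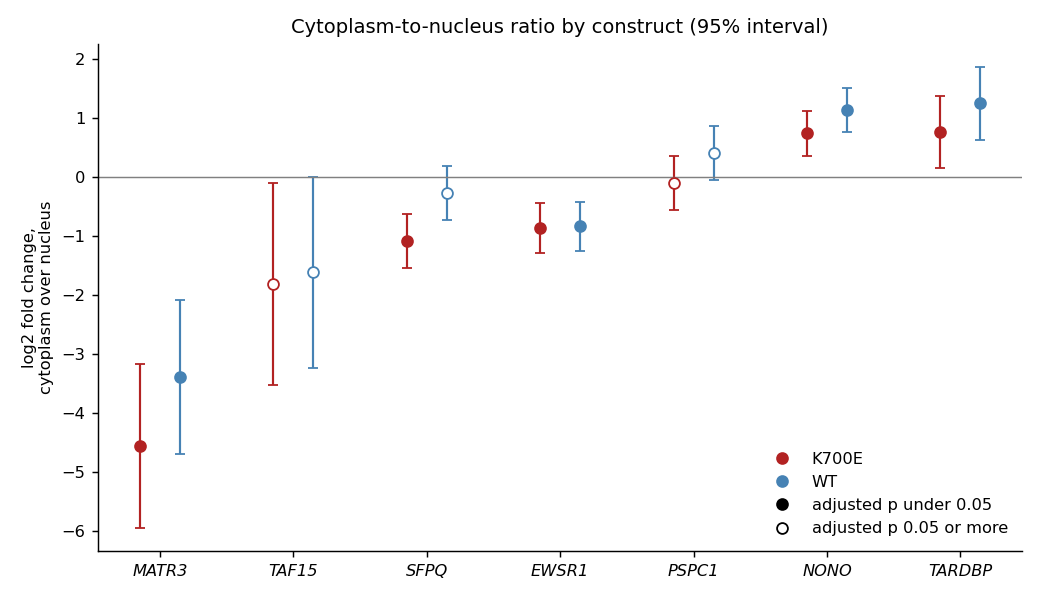
Log2 fold change of cytoplasm over nucleus for each gene, K700E in red left of WT in blue, with 95% intervals and filled points where the edgeR adjusted p was under 0.05. NONO and TARDBP lie above 0 and EWSR1 and MATR3 below 0 with both constructs, and SFPQ is at -1.10 with K700E and -0.28 with WT.

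MATR3 gave the steepest fraction difference, on counts under the ID that was tested. Exons of its IDs overlap in part, and these are the opening coding bases that transcripts under both IDs have in common, shown since a read from them cannot be placed under one ID (start codon in capitals, GENCODE release 29 on GRCh38).
MATR3, first 60 coding bases: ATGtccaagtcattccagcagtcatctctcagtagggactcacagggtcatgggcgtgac
The longest coding sequence identical under both IDs has 2544 bases. Of the 12090 exonic bases of ENSG00000015479.20, 42.5% overlap exons of the other ID, and 86.7% of its 6949 remaining bases lie outside coding transcripts. Of the 6355 exonic bases of ENSG00000280987.4, 92.4% overlap other genes' exons. How reads on shared exons were assigned is not given in the sources used here, and the part that this overlap has in the MATR3 counts was not tested.

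Under ENSG00000015479.20, MATR3 had 23, 40 and 21 counts in K700E cytoplasm and 732, 482 and 642 counts in K700E nuclei. In WT it had 32, 48 and 42 counts in the cytoplasm and 833, 49 and 346 counts in the nuclei. Scaled, these were 2.19 ± 0.82 CPM in K700E cytoplasm and 52.0 ± 9.09 CPM in K700E nuclei, and 3.19 ± 0.69 CPM in WT cytoplasm and 33.7 ± 30.5 CPM in WT nuclei (SD, n = 3 each). WT nucleus replicate 2, at 4.30 CPM, lay near the cytoplasmic libraries and far below the other nuclear ones, which had 65.2 and 31.5 CPM. Cytoplasmic MATR3 was 23.7-fold lower with K700E (-4.57 ± 0.66, edgeR adjusted p = 1.8e-05) and 10.5-fold lower with WT (-3.40 ± 0.62, edgeR adjusted p = 0.00017). Without WT nucleus replicate 1 the WT value was -2.43, and without replicate 2 it was -3.88. The second ID had 0 to 37 counts per library and was not tested. Its group sums were 50 counts in K700E cytoplasm and 1 in K700E nuclei, and 30 in WT cytoplasm and 6 in WT nuclei, the opposite order to the first ID.

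TAF15, the other FET protein, was nearly absent from the counts under its ID, with 60 counts over the 12 libraries. It had 1, 2 and 3 counts in K700E cytoplasm and 4, 6 and 10 in K700E nuclei, and 2, 2 and 5 in WT cytoplasm and 5, 8 and 12 in WT nuclei. The nuclear libraries, through which it passed the filter, had to be higher than the cytoplasmic ones for it to be tested at all. Its log2 fold changes were -1.82 ± 0.81 with K700E (edgeR adjusted p = 0.058) and -1.62 ± 0.77 with WT (edgeR adjusted p = 0.071). They were called with library size alone in both constructs (adjusted p = 0.024 with K700E and 0.022 with WT) and with RLE size factors in K700E (adjusted p = 0.047). These counts are of that ID alone. In the files 6542 IDs, with 0.204% of all counts, had no symbol in the tables used here, and whether reads of TAF15 were counted under one of them was not tested.

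Cytoplasmic levels were then compared between K700E and WT. No gene of the 7 passed, and over all genes 1 was called higher and 0 lower (0.0049% and 0.0%) by edgeR. DESeq2 called 11 higher and 2 lower, and 929 genes (4.56%) had an unadjusted edgeR p under 0.05. All 7 had log2 fold changes below 0, with all genes tested at a median of 0.00. SFPQ, NONO, PSPC1, EWSR1 and TARDBP each had their 3 K700E libraries below their 3 WT libraries, 5 of 7 genes against 6.98% of all genes. The 7 genes were chosen with earlier results of these data known. Their levels come from the same libraries, so the 5 are not independent observations, and no test was made of this count. The count was also 5 with RLE size factors (background 8.27%) and 4, without EWSR1, with library size alone (5.77%). Without the 3 libraries that rose most with GC content, which left 2 against 2, it was 6 with TAF15 included (23.8%).

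SFPQ had the largest of these differences relative to its error. With 578, 672 and 630 CPM in K700E cytoplasm and 1152, 1035 and 835 CPM in WT cytoplasm, it was 1.61-fold lower with K700E (-0.69 ± 0.22, 95% interval -1.14 to -0.23). Its unadjusted p of 0.0056 gave an edgeR adjusted p of 1.0 over 20394 genes, and 1.95% of all genes had an unadjusted p under 0.05 and a lower level. The value ran from -0.80 to -0.58 over 22 alternatives and was called in 0 of them. PSPC1 had 109, 104 and 95.9 CPM in K700E cytoplasm and 149, 135 and 118 CPM in WT cytoplasm (-0.38 ± 0.22, 95% interval -0.84 to 0.08). TARDBP had 390, 529 and 445 CPM in K700E cytoplasm and 623, 569 and 565 CPM in WT cytoplasm (-0.36 ± 0.29, interval -0.97 to 0.24). EWSR1 had 487, 428 and 579 CPM in K700E cytoplasm and 627, 580 and 670 CPM in WT cytoplasm (-0.33 ± 0.20, interval -0.75 to 0.09), where the highest K700E library was within 2 CPM of the lowest WT library.

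NONO differed least, with 1122, 1139 and 1191 CPM in K700E cytoplasm and 1287, 1263 and 1231 CPM in WT cytoplasm (-0.13 ± 0.18, 95% interval -0.50 to 0.24). Its libraries were tight, with a coefficient of variation of 3.13% in K700E and 2.21% in WT cytoplasm. MATR3 (-0.54 ± 0.64) and TAF15 (-0.54 ± 0.87) had overlapping libraries, and their 95% intervals ran from -1.90 to 0.81 for MATR3 and from -2.37 to 1.29 for TAF15.

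**Figure D3:**
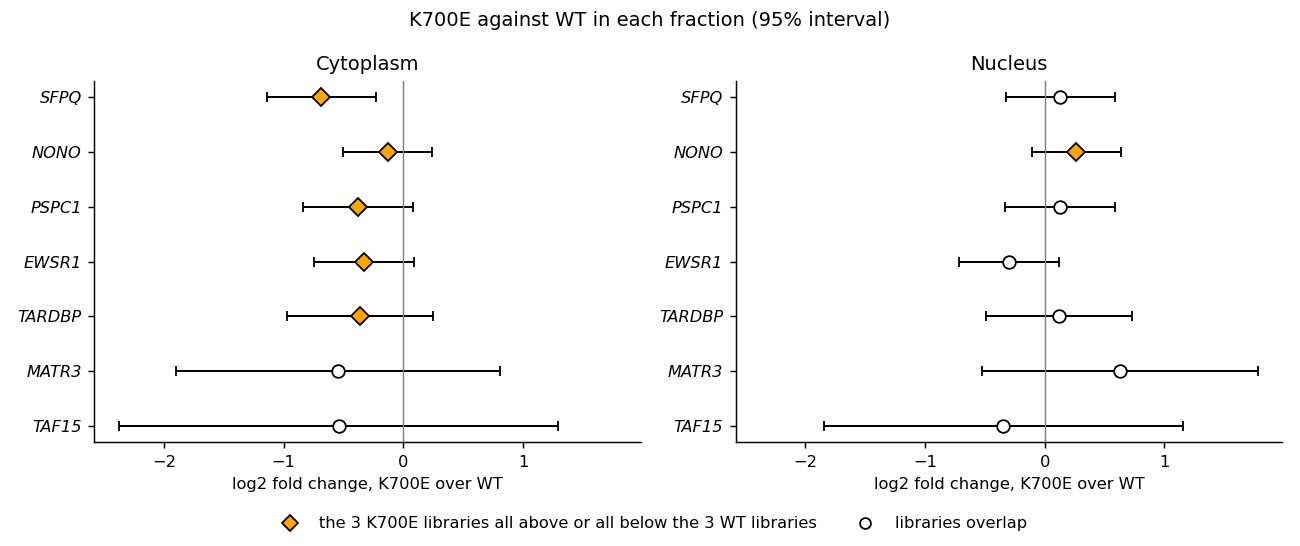
Log2 fold change of K700E over WT for each gene in the cytoplasm and in the nucleus, with 95% intervals; orange diamonds mark genes whose 3 K700E libraries were all above or all below the 3 WT libraries. In the cytoplasm all 7 points lie left of 0 and 5 are diamonds, and in the nucleus NONO alone is a diamond, to the right of 0.

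In the nucleus no gene of the 7 passed, and 0 of 20394 genes were called by edgeR (0.0%). DESeq2 called 1 of them, and 1389 (6.81%) had an unadjusted edgeR p under 0.05. NONO had 634, 736 and 708 CPM in K700E nuclei and 594, 551 and 585 CPM in WT nuclei. It was the only one of the 7 whose nuclear libraries did not overlap, with K700E higher (0.26 ± 0.18, 95% interval -0.11 to 0.64, edgeR adjusted p = 0.67), against 3.91% of all genes. SFPQ was at 1339 ± 83.6 CPM in K700E nuclei and 1222 ± 299 CPM in WT nuclei (0.13 ± 0.21), and PSPC1 at 110 ± 28.3 and 101 ± 13.6 CPM (0.13 ± 0.22). EWSR1 was at 913 ± 74.4 CPM in K700E nuclei and 1122 ± 171 CPM in WT nuclei (-0.30 ± 0.20). TARDBP was at 269 ± 64.8 CPM in K700E nuclei and 248 ± 127 CPM in WT nuclei (0.12 ± 0.29). The coefficient of variation was smaller in K700E nuclei than in WT nuclei for 4 of the 7 genes (SFPQ, EWSR1, TARDBP and MATR3, the widest pair being 17.5% and 90.7% for MATR3) and larger for NONO, PSPC1 and TAF15. TARDBP reached 0.63 without WT nucleus replicate 1, and MATR3 (0.63 ± 0.55) was at 0.11 without WT nucleus replicate 2.

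The interaction tested whether the cytoplasm-to-nucleus ratio of a gene differed between constructs, which is narrower than the question of the series title. Each fraction was scaled to its own total, so a change shared by most mRNAs would largely be scaled out. A ratio of levels is also not a rate of export, so export itself was not tested. No gene of the 7 and 0 of all genes passed by edgeR (0.0%). DESeq2 called 2 higher and 1 lower, and 672 genes (3.3%) had an unadjusted edgeR p under 0.05. SFPQ had a ratio 1.76-fold lower with K700E than with WT (-0.82 ± 0.30, 95% interval -1.46 to -0.18, unadjusted p = 0.016, edgeR adjusted p = 0.98), and 1.02% of all genes had a lower ratio at an unadjusted p under 0.05. Its passing in K700E and not in WT is therefore not shown to be a difference between the constructs. MATR3 had the largest estimate, -1.17 ± 0.84, with an interval of -2.95 to 0.61. PSPC1 (-0.51 ± 0.31), TARDBP (-0.49 ± 0.41), NONO (-0.40 ± 0.25) and TAF15 (-0.20 ± 1.04) also had intervals that include 0. EWSR1 was at -0.03 ± 0.28, with an interval of -0.62 to 0.56. The interaction uses the same libraries as the comparisons above and is no separate evidence.

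Ratios of counts within one library do not depend on scaling, and they set the paired DBHS mRNAs against each other. SFPQ over NONO was 0.515, 0.590 and 0.529 in K700E cytoplasm and 0.896, 0.819 and 0.679 in WT cytoplasm. All K700E libraries were below all WT libraries, with means of 0.545 ± 0.040 and 0.798 ± 0.110 in K700E and WT cytoplasm, 1.46-fold apart. A two-sided permutation test, exact for 3 against 3 libraries, gave p = 0.1, the smallest value it can give (adjusted p = 0.18 over 20 such tests). In the nuclei SFPQ over NONO was 1.95 ± 0.25 with K700E and 2.11 ± 0.44 with WT, and these overlapped (exact p = 0.7). Between fractions it was 3.56-fold lower in the cytoplasm with K700E and 2.62-fold lower with WT (exact p = 0.1 each).

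EWSR1 over NONO separated the constructs in the nucleus instead. It was 1.46, 1.13 and 1.39 in K700E nuclei and 1.91, 2.34 and 1.62 in WT nuclei, means of 1.33 ± 0.17 and 1.95 ± 0.36 (exact p = 0.1, adjusted p = 0.18). In the cytoplasm it was 0.432 ± 0.055 with K700E and 0.497 ± 0.043 with WT, with overlapping libraries. In the nuclei EWSR1 itself overlapped between constructs and NONO was higher with K700E, so the nuclear ratio is no evidence separate from NONO. SFPQ over PSPC1 was 6.12 ± 0.72 in K700E cytoplasm and 7.49 ± 0.35 in WT cytoplasm, without overlap (exact p = 0.1, adjusted p = 0.18). PSPC1 over NONO overlapped there, at 0.0896 ± 0.0085 and 0.106 ± 0.010 (exact p = 0.2). TARDBP over NONO had overlapping libraries in each of the 4 comparisons of groups, at 0.395 ± 0.061 in K700E cytoplasm and 0.394 ± 0.121 in K700E nuclei (exact p = 0.9) and 0.464 ± 0.017 in WT cytoplasm and 0.426 ± 0.205 in WT nuclei (exact p = 0.6).

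**Figure D4:**
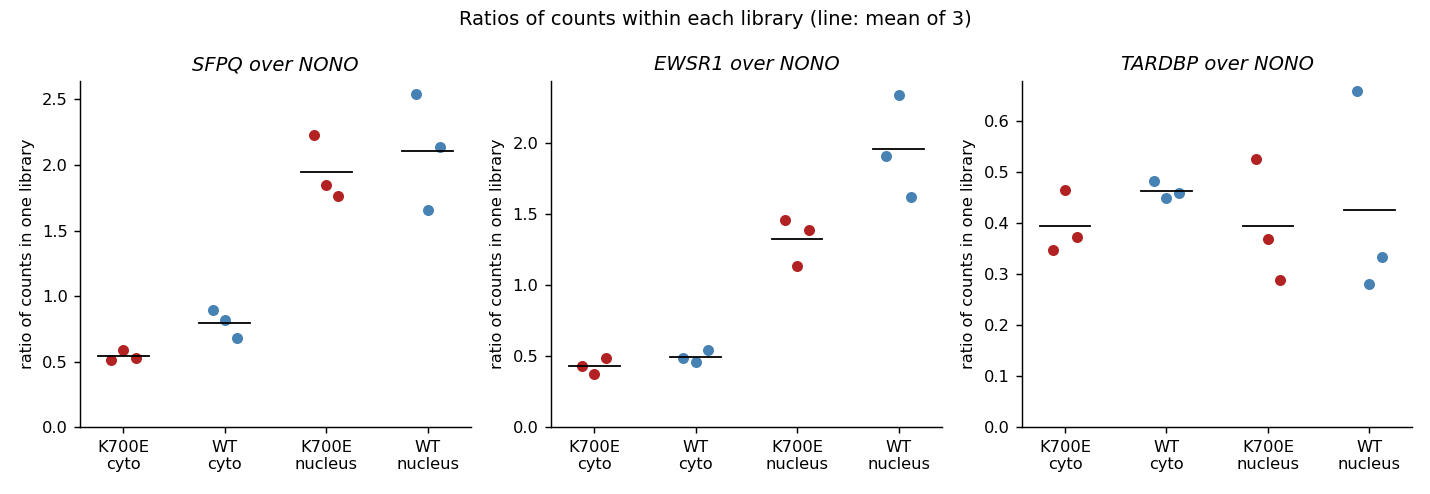
Ratios of raw counts within each library for SFPQ over NONO, EWSR1 over NONO and TARDBP over NONO, with points for libraries, K700E in red and WT in blue, and lines for the mean of 3. SFPQ over NONO is 0.545 on average in K700E cytoplasm and 0.798 in WT cytoplasm, and EWSR1 over NONO is 1.33 in K700E nuclei and 1.95 in WT nuclei.

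Over all 12 libraries NONO and TARDBP varied together, and EWSR1 varied the opposite way to both. Pearson correlations of log2 CPM were 0.85 between NONO and TARDBP, -0.89 between NONO and EWSR1 and -0.75 between TARDBP and EWSR1. SFPQ was at 0.71 with EWSR1 and 0.86 with MATR3, at -0.62 with NONO and only -0.32 with TARDBP, and MATR3 was at -0.78 with NONO and -0.52 with TARDBP. These describe 12 libraries that share fraction, depth and scaling, and SFPQ and PSPC1 correlated at 0.12. Fraction means were not removed, so the correlations here and below include the differences between fractions already given and are no separate evidence. Of 10957 other protein-coding genes, those most like SFPQ were DDX5 (r = 0.96), a DEAD-box RNA helicase, and FBXO9 (0.96). Most like NONO were TBC1D14 (0.99) and MED28 (0.99), a Mediator subunit, and most like PSPC1 were WTAP (0.92), a subunit of the m6A methyltransferase complex, and ETV1 (0.88). EWSR1 was most like POFUT2 (0.99) and SHROOM1 (0.98), TARDBP most like CTNNB1 (0.99), the gene of beta-catenin, and UTP25 (0.98), and MATR3 most like ZNF248 (0.99) and RBAK (0.99).

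Genes of 3 related lists were set beside the 7, and they were divided between the fractions as well. Of 33 other paraspeckle proteins tested, the cytoplasm had 15 higher and 9 lower with K700E (median log2 fold change 0.50), and 15 and 7 with WT (median 0.45). Over all genes tested, 28.1% were higher and 37.9% lower with K700E, and 27.1% and 40.0% with WT, with medians of -0.29 and -0.40. Over the protein-coding genes alone the medians were 0.19 with K700E and 0.13 with WT, nearer to those of the list. HNRNPUL1 was at 662 ± 90.5 CPM in K700E cytoplasm and 115 ± 10.2 CPM in K700E nuclei (2.53 ± 0.20), and HNRNPF, a splicing regulator that binds G tracts, was at 2.09 ± 0.20. HNRNPH1, its close relative, went the other way, with 83.0 ± 1.5 CPM in K700E cytoplasm and 414 ± 103 CPM in K700E nuclei (-2.32 ± 0.23), as did SS18L1 (-1.98 ± 0.21). In WT the values were 2.46 ± 0.20 for HNRNPUL1, 2.29 ± 0.20 for HNRNPF, -2.10 ± 0.21 for SS18L1 and 2.48 ± 0.25 for FAM98A. Without the 3 libraries that rose most with GC content 4 paraspeckle genes were called lower in WT (34.8% of all genes), and with library size alone 12 were (50.3% of all genes).

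Of 26 partners in nuclear import, arginine methylation and stress granules, the cytoplasm had 16 higher and 4 lower with K700E (median 0.77), and 15 and 5 with WT (median 1.08), beside the same shares of all genes, 28.1% and 37.9% with K700E and 27.1% and 40.0% with WT. The medians over protein-coding genes were 0.19 with K700E and 0.13 with WT. UBQLN2, a shuttle factor to the proteasome, was at 87.7 ± 12.5 CPM in K700E cytoplasm and 17.8 ± 3.52 CPM in K700E nuclei (2.30 ± 0.22). PRMT1, the main arginine methyltransferase of FET proteins, was higher in the cytoplasm with both constructs (2.36 ± 0.31 with K700E and 2.0 ± 0.31 with WT). So were the importin KPNB1 (1.51 ± 0.20 with K700E and 1.53 ± 0.20 with WT) and the stress granule protein G3BP2 (1.54 ± 0.28 with K700E and 1.97 ± 0.29 with WT). The related RNA-binding proteins TIAL1 (-2.29 ± 0.22) and TIA1 (-1.73 ± 0.23) were lower in K700E cytoplasm than in K700E nuclei. In WT, TIAL1 was at -1.88 ± 0.22, so its lower cytoplasmic level was not particular to K700E. With library size alone 10 partners were called higher and 7 lower with K700E (20.7% and 46.4% of all genes), and 8 lower with WT (50.3%).

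Of 19 nuclear matrix proteins, the list nearest to MATR3, the cytoplasm had 6 higher and 8 lower with K700E (median -0.23), and 5 and 4 with WT (median -0.05). The shares higher, 6 of 19 and 5 of 19, were near those of all genes (28.1% with K700E and 27.1% with WT), and 37.9% and 40.0% of all genes were lower. The medians over protein-coding genes were 0.19 with K700E and 0.13 with WT. The B-type lamins LMNB1 (2.15 ± 0.21) and LMNB2 (2.09 ± 0.29) and the insulator protein CTCF (1.25 ± 0.20) were higher in K700E cytoplasm, and SLTM (-1.37 ± 0.23) was lower. In WT, LMNB1 was at 2.48 ± 0.21, LMNB2 at 1.69 ± 0.29, CTCF at 1.21 ± 0.20 and HNRNPU, a chromatin-associated scaffold protein, at 1.11 ± 0.24. The GC correction gave 5 matrix proteins lower with K700E (33.7% of all genes), and 9 higher and 1 lower with WT (36.8% and 35.0%).

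Between the constructs, 0 genes of the 3 lists passed in either fraction or in the interaction, with all genes at 0.0049% in the cytoplasm and 0.0% in the nucleus and the interaction. With no filter beyond 1 count, 1 partner, SQSTM1, an autophagy receptor, was called higher in the interaction (2.67 ± 0.62, edgeR adjusted p = 0.023), on 18 to 183 counts in K700E cytoplasm and 15 to 40 in WT cytoplasm, and 22 to 75 in K700E nuclei and 44 to 220 in WT nuclei. With the filter SQSTM1 was at 2.77 ± 1.1 (edgeR adjusted p = 0.98), and it is named here after its values were seen. In the cytoplasm the log2 fold change of K700E over WT was below 0 for 25 of 33 paraspeckle proteins (median -0.11), 15 of 26 partners (median -0.10) and 14 of 19 matrix proteins (median -0.17), with a median of 0.00 over all genes tested and 0.01 over protein-coding genes. SAFB2, a scaffold attachment factor, was at 67.3 ± 17.4 CPM in K700E cytoplasm and 115 ± 5.16 CPM in WT cytoplasm (-0.77 ± 0.23, unadjusted p = 0.0041, edgeR adjusted p = 1.0), and the splicing regulator HNRNPM at 511 ± 171 and 757 ± 81.5 CPM (-0.57 ± 0.23). In the nucleus the list medians were 0.03, 0.19 and 0.06, with the poly(A) site factor NUDT21 at 0.67 ± 0.28, UBQLN2 at 0.51 ± 0.22 and LMNA at -0.71 ± 0.29 among the smallest p-values.

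**Figure D5:**
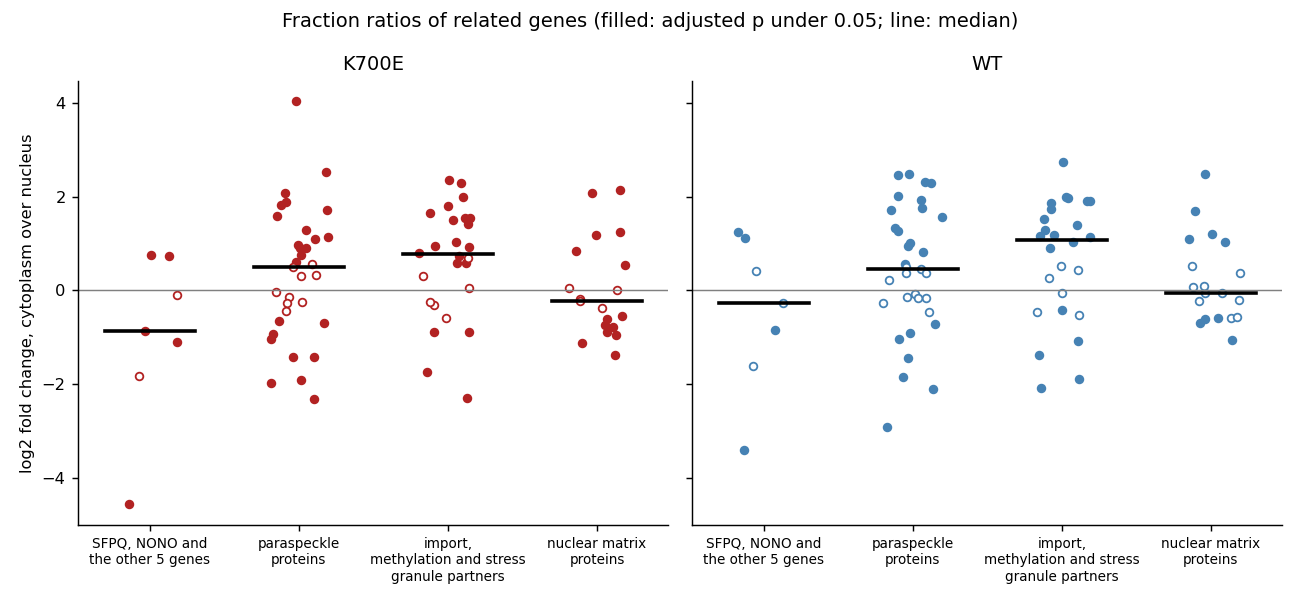
Log2 fold change of cytoplasm over nucleus for SFPQ, NONO and the other 5 genes and for the 3 lists, with K700E in the left panel and WT in the right, filled points where the edgeR adjusted p was under 0.05 and lines at the median. The partners in import, methylation and stress granules have the highest medians, 0.77 with K700E and 1.08 with WT.

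Processed pseudogenes of the 7 held few reads. NONOP2 had 379 counts in all, 0.275% of NONO's, PSPC1P1 had 116, 0.700% of PSPC1's, and the other annotated copies had 0 to 4. In the annotation, EWSR1 shares 121 of its 10326 exonic bases with RHBDD3, PSPC1 shares 36 of 4817 with its antisense gene PSPC1-AS2, TAF15 shares 424 of 5909 with HEATR9, and SFPQ, NONO and TARDBP share none with another gene in the files. PSPC1-AS2 was at 3.81 ± 0.97 CPM in K700E nuclei and 2.28 ± 1.29 CPM in WT nuclei.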

How the data were processed

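RNA of nuclear and cytoplasmic fractions from HEK293T cells was sequenced in 12 libraries, 3 per group, prepared from Trizol extracts with NEBNext Ultra kits per the labels' protocols. The deposited values are raw counts per gene ID. The submitters' processing notes name HISAT2 and DESeq without versions, while the sources used here give no genome build, annotation, counting settings or strand use. IDs were matched without version number to symbols, found for 60507, and to GRCh38 coordinates of GENCODE release 29, found for 58440 with 99.7% of counts, whose ID versions differ from those deposited.

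Groups were compared in R 4.3.3 with edgeR 4.0.16 (quasi-likelihood F tests on all 12 libraries, 1 term per group, TMM, filterByExpr with minimum count 10 and total 15). Benjamini-Hochberg adjusted p under 0.05 over 20394 genes was called. The biological coefficient of variation was 0.306. The SE is the absolute log2 fold change over the square root of F. The prior count for log2 CPM was 2. No pair of libraries had identical counts, and the labels name no batch.

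Alternatives were DESeq2 1.42.0, RLE size factors, library size alone, no filter beyond 1 count, 1 CPM in all 12 libraries, only the 6 libraries compared, replicate blocks, a GC correction (lowess of each library on transcript GC content, as an offset) and leaving out each library. The GC correction used deviations from each gene's mean over all 12 libraries, so it also removes GC-linked differences between fractions. Leaving out 3 libraries for their GC trend, taken within groups, was added after seeing the data. The pipeline was run on simulated counts with known changes in K700E cytoplasm, no other difference between fractions and less spread than these data. That run checks the code and not the power to find changes here. The 7 genes and the 3 lists of related genes were chosen with earlier results of these data known. Named list genes are up to 4 per list and comparison with the smallest p and a mean of at least 5 CPM, of which some are printed. For likeness, 2 protein-coding genes per member were taken.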

Additional observations from a re-analysis of the deposited data

Results flagged for a closer look

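NONO was the one gene of the 7 whose K700E and WT libraries were separated in opposite directions in the fractions. All 3 K700E libraries lay below all 3 WT libraries in the cytoplasm (1122 to 1191 CPM with K700E and 1231 to 1287 CPM with WT), and above them in the nucleus (634 to 736 CPM with K700E and 551 to 594 CPM with WT). Of all genes tested, 22 (0.108%) had this pattern and 42 (0.206%) had it in either direction. NONO was flagged because it had this pattern, so these shares only describe the pattern and are no evidence about NONO. The difference of the log2 fold changes, cytoplasm minus nucleus, was -0.40 ± 0.25 SE, which did not pass in edgeR (unadjusted p = 0.13, adjusted p = 0.98). It ran from -0.46 to -0.29 over 22 alternatives and was called in 0 of them. The TMM factors of the cytoplasmic libraries ran from 0.836 to 0.865 and those of the nuclear libraries from 1.05 to 1.25, and the opposite separation of NONO was also present with RLE size factors and with library size alone.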

How the results depend on the processing

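Over 23 alternatives or fewer per result, 755 of 775 values of the 7 genes kept their side of the threshold, 10 lost a call and 10 gained one, all in the cytoplasm-against-nucleus comparisons. The count of genes higher in K700E cytoplasm, 2, was 1 with DESeq2, with RLE size factors and with at least 1 CPM demanded of every library, and 0 with library size alone. Library size alone gave 5 lower with K700E and 4 lower with WT, against 3 and 2, where the share of all genes called lower was 46.4% and 50.3%, against 37.9% and 40.0%. It also moved the median of all genes by -0.41 with K700E and -0.52 with WT, the strict filter by -0.32 in both and the GC correction by 0.25 and 0.32. Leaving out each library gave 1 to 2 higher and 3 lower with K700E, and 2 to 3 higher and 2 lower with WT. Without the 3 libraries that rose most with GC content, K700E cytoplasm 3, WT nucleus 2 and WT cytoplasm 3, chosen after seeing the data, the counts were 2 higher and 3 lower with K700E and 2 and 2 with WT. EWSR1 lost its K700E call with the GC correction. Replicate numbers were not taken to pair the libraries, since a correlation of deviations over 0.1 in every pair with the same number was not reached. Within a fraction all 6 K700E and WT pairs with the same number were above 0 (0.03 to 0.43, 4 over 0.1), against 4 of 12 pairs with other numbers (-0.33 to 0.17). Between fractions 6 of 12 same-number pairs were above 0 (-0.25 to 0.17). A replicate block gave 2 higher and 4 lower with K700E, where TAF15 was added (adjusted p = 0.045), and 2 and 2 with WT. Between constructs and in the interaction, 0 of the 7 were called under any setting run.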
